A study of Mus musculus with 26 samples.

Results

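Leukaemia inhibitory factor (LIF) holds mouse embryonic stem cells in self-renewal through a receptor of 2 chains and the transcription factor STAT3. The genes described here are the receptor chains Lifr and Il6st, the kinase Jak1, Stat3 itself, and the STAT3 target genes Socs3 and Bcl3. They are 6 of 18193 named genes on the array, and they were followed through all 13 groups of the study, with and without LIF in the medium. A total of 18 of 45100 probe sets carry the symbol of 1 of these genes alone. Each gene was read from its probe set with the highest mean over the 26 arrays, and the others served as a check. Lifr, Jak1 and Socs3 had 3 such probe sets, Il6st and Stat3 had 4 and Bcl3 had 1.

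Messenger RNA was measured on Affymetrix arrays, 2 per group, in male C57BL/6 mouse embryonic stem cells grown on feeder cells (MEF, embryonic fibroblasts that support the stem cells). The genotypes were Prdm14(-/-)+AGP14, which are Prdm14(-/-) cells with an added Avitag-EGFP-Prdm14 transgene, then Prdm14(-/-) and Prdm14(+/+). Prdm14 encodes a nuclear PR domain protein that supports the naive state of these cells. The vector of the transgene, pPyCAG-AGP14, is of a kind that carries the ubiquitous CAG promoter. Cells of all 3 genotypes were grown in serum without LIF, in serum medium and in 2i, and cells of the Prdm14(-/-) and Prdm14(+/+) genotypes also in serum with a MEK inhibitor. Serum medium held 20% fetal bovine serum and 1000 units per ml of LIF for 2 days, and its LIF-free form left out only LIF. The MEK inhibitor PD0325901, which blocks the kinase that activates ERK, was used at 0.4 uM. 2i medium held PD0325901 at 0.4 uM, the GSK3 inhibitor CHIR99021 at 3 uM, and 1000 units per ml of LIF. The remaining groups were day 3 and day 2 of epiblast-like cells (EpiLC) derived from a line with the reporters Blimp1-mVenus and Stella-ECFP, and the labels do not give their medium or its LIF. The labels do not say that the 2 arrays of a group came from separate cultures, and the spread between arrays, which is all the p-values rest on, may be technical.

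LIF binds the LIFR chain, which then pairs with gp130, the product of Il6st. Janus kinases such as JAK1, bound to both chains, phosphorylate the receptor and then STAT3, which dimerises, enters the nucleus and binds palindromic sites near its target genes. Socs3 is a direct target whose product binds gp130 and the kinases and shuts the signal down again. Bcl3, a nuclear member of the IkappaB family, is another target and has been linked to self-renewal of mouse embryonic stem cells. Stat3 is itself known as a STAT3 target in other cells, so its messenger RNA can be both a component and a readout of the pathway.

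The promoter of Socs3 is shown because its STAT sites are a textbook case. The RefSeq window of each gene runs from 250 bases before to 50 bases after the annotated start (build GRCm38.p6), and it was searched for TTCNNNGAA, which reads the same on both strands. Of the 7 windows of the 6 genes, 1 held a match, that of Socs3, 154 bases before its start. Among all 32851 windows, 8.298% held one. Capitals mark the match in the 250 bases before the start of Socs3 (chr11:117969367-117969616, minus strand), and the same stretch of Bcl3 (chr7:19822756-19823005, minus strand) holds none.
Socs3: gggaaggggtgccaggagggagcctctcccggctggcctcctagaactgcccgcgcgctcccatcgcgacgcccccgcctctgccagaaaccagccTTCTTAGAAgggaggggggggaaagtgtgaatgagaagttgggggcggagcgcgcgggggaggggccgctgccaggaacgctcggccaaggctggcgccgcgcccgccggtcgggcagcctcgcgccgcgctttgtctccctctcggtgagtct
Bcl3: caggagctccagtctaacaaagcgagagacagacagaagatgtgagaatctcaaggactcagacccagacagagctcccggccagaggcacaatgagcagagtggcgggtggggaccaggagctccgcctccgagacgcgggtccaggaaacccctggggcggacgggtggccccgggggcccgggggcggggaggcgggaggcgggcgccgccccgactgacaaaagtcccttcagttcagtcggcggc

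Among 15 other genes listed as STAT3 targets, 12 had a window and 3 of them held a match. Shown here are Icam1, which encodes a cell adhesion molecule, and Zfp36, which encodes a protein that speeds messenger RNA decay. Their matches, with 8 bases on either side, lay at chr9:21015890-21015914 on the plus strand for Icam1 and chr7:28379229-28379253 on the minus strand for Zfp36. They are set out beside that of Socs3 (chr11:117969504-117969528, minus strand), with the match in capitals.
Socs3: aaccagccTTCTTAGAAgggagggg
Icam1: cgcgaggtTTCCCGGAAagtggccc
Zfp36: agcctgacTTCTGCGAAccgacagt
A match describes the letters only, and a window without one says nothing of binding elsewhere.

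Values are log2 signals as deposited, with base 2 inferred from their range of 0 to 13.89, and the number of arrays limits their precision. The signal of Prdm14 went against the genotype labels in 2i and with MEK inhibitor. It read 11.29 ± 0.06 in Prdm14(-/-) cells in 2i, against 9.18 ± 0.32 in Prdm14(+/+) cells in 2i, and with MEK inhibitor 10.73 ± 0.19 in Prdm14(-/-) cells, against 9.26 ± 0.31 in Prdm14(+/+) cells (SD, n = 2 each). Which part of the gene was deleted is unknown here, so this signal checks nothing, and genotypes are those of the labels. The 6 lys control probe sets, which read spiked-in bacterial RNA, averaged 13.40 to 13.55 on 12 arrays and 6.86 to 7.44 on the other 14. The 12 arrays are those of 2i and of MEK inhibitor in the Prdm14(-/-) and Prdm14(+/+) genotypes and of both EpiLC days. Contrasts that cross this divide are named as such, since the divide and the group cannot be told apart in them. In bulk RNA, fewer cells of a type and less RNA per cell cannot be told apart. Naive stem cell markers, summed over 7 genes, lay at 14.13 to 14.45 in the 3 genotypes in 2i and at 11.38 to 11.69 in EpiLC, and feeder fibroblast markers, summed over 20 genes, ran from 11.10 on day 2 of EpiLC to 14.44 in 2i. No marker gene was listed at 0. Extraembryonic endoderm markers, summed over 6 genes, stayed between 6.86 and 8.26.

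**Figure D1:**
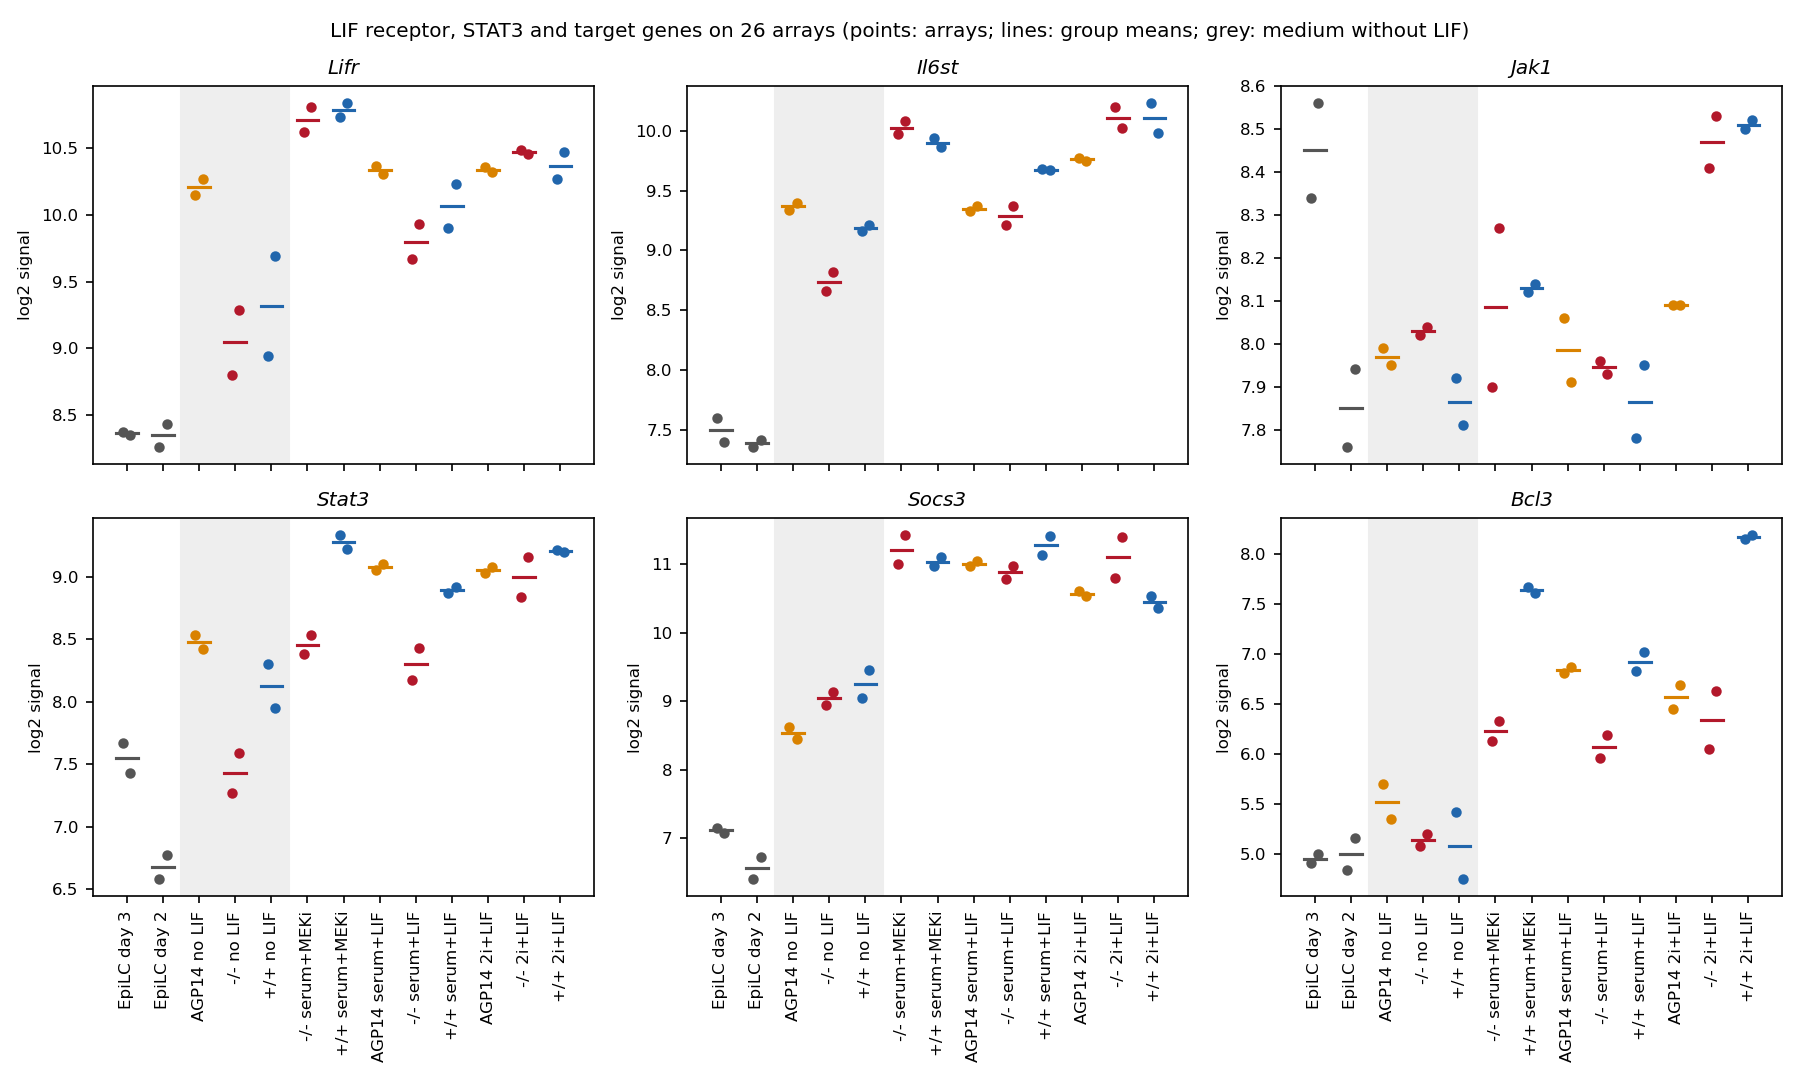
Log2 signal of Lifr, Il6st, Jak1, Stat3, Socs3 and Bcl3 (vertical axes, each with its own range) on each of 26 arrays in the 13 groups (points), with the group mean as a line and the medium without LIF shaded. On the chosen probe sets shown, Socs3 spans 4.71 between group means and Jak1 0.66.

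The genes differed in how far they moved across the study. The 13 group means of Socs3 spanned 4.71 on the log2 scale, those of Bcl3 3.21, Il6st 2.72, Stat3 2.60 and Lifr 2.44, which placed these 5 at or above the 90.47th percentile of the span over all genes. Jak1 spanned only 0.66, at the 15.85th percentile. Lifr, Il6st, Stat3 and Socs3 had their lowest group mean in EpiLC of day 2, and Bcl3 in EpiLC of day 3. Jak1 was also lowest in EpiLC of day 2, at 7.85, but overlapped Prdm14(+/+) cells in serum and without LIF, at 7.865 each. Its further probe sets were lowest elsewhere, on arrays of Prdm14(+/+) cells without LIF (6.25) and of Prdm14(-/-)+AGP14 cells in 2i (4.89). The highest mean lay in 2i for Bcl3 (8.17 ± 0.03 in Prdm14(+/+) cells) and for Il6st (10.11 ± 0.13 in Prdm14(-/-) cells). It lay in MEK inhibitor for Lifr (10.79 ± 0.07) and Stat3 (9.28 ± 0.08), and in serum for Socs3 (11.28 ± 0.19), each in Prdm14(+/+) cells (SD, n = 2 each). For Socs3 this rests on the chosen probe set. With its probe sets averaged, serum was not called against 2i in Prdm14(+/+) cells (0.30, limma, adjusted p = 0.331).

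Neighbours in this order were often within each other's spread. For Socs3, the 6 highest groups, which were all but 2 of the groups with added LIF, overlapped in a chain from 11.42 down to 10.79. Next came Prdm14(-/-)+AGP14 and Prdm14(+/+) cells in 2i, at 10.36 to 10.61. The 3 groups without LIF followed at 8.45 to 9.46, and both EpiLC days lay at 7.15 and below. The groups of Socs3 with added LIF, without LIF and of EpiLC thus formed 3 separate blocks. No other gene was split in this way: Stat3 in Prdm14(-/-)+AGP14 cells without LIF, at 8.42 to 8.53, overlapped Prdm14(-/-) cells in serum, at 8.17 to 8.43. The highest signal of Bcl3 on an array without LIF, 5.70, lay below the lowest with added LIF, 5.96, but EpiLC, at 4.84 to 5.16, overlapped the groups without LIF. On the EpiLC arrays the median of all probe sets was 4.88 to 4.97, and whether Bcl3 stood above background there was not tested.

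LIF withdrawal was tested in each genotype as serum without LIF minus serum with LIF, 2 arrays against 2. All these arrays were on the same side of the lys divide. Socs3 fell in all 3 genotypes, with log2 differences of -2.48 in Prdm14(-/-)+AGP14 cells, -1.84 in Prdm14(-/-) cells and -2.02 in Prdm14(+/+) cells. Bcl3 fell in all 3 as well. Stat3 and Il6st fell in the Prdm14(-/-) and Prdm14(+/+) genotypes, and Lifr passed the test in Prdm14(+/+) cells alone, while Jak1 did not pass in any. Some alternative fits also called Stat3 in Prdm14(-/-)+AGP14 cells and Lifr in Prdm14(-/-) cells, as given below. An adjusted p under 0.05 was required throughout (limma, Benjamini-Hochberg over 18193 genes).

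Socs3 read 8.62 and 8.45 in Prdm14(-/-)+AGP14 cells without LIF, against 10.98 and 11.04 with it. In Prdm14(-/-) cells it read 8.94 and 9.14 without LIF, against 10.79 and 10.98 with it. Prdm14(+/+) cells had 9.05 and 9.46 without LIF, against 11.14 and 11.41 with it. Every array without LIF lay below every array with it. Over the mean of the 3 genotypes Socs3 was 4.33-fold lower without LIF (log2 difference -2.11, SE 0.10, adjusted p = 9.19e-10). Its other 2 probe sets gave -2.24 and -2.07.

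Bcl3 read 5.70 and 5.35 in Prdm14(-/-)+AGP14 cells without LIF, against 6.81 and 6.87 in serum. Prdm14(-/-) cells had 5.08 and 5.20 without LIF, against 5.96 and 6.19. In Prdm14(+/+) cells it read 5.42 and 4.75 without LIF, against 6.83 and 7.02. The groups were separate in each genotype, and the starting level in serum was lowest in Prdm14(-/-) cells. The differences were -1.31 (SE 0.21, adjusted p = 0.0082), -0.94 (adjusted p = 0.0346) and -1.84 (adjusted p = 0.000135) in that order of genotypes, and -1.36 (SE 0.12, adjusted p = 2.89e-06) over their mean. Leaving out any 1 of the 4 arrays ended the call of Bcl3 in Prdm14(-/-)+AGP14 cells (differences -1.49 to -1.14) and in Prdm14(-/-) cells (-1.05 to -0.82), though not in Prdm14(+/+) cells.

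Stat3 read 8.53 and 8.42 in Prdm14(-/-)+AGP14 cells without LIF, against 9.05 and 9.10 in serum. Prdm14(-/-) cells had 7.27 and 7.59 without LIF, against 8.17 and 8.43. In Prdm14(+/+) cells it read 8.30 and 7.95 without LIF, against 8.87 and 8.92. Arrays without LIF were below those with it in every genotype. The difference was -0.60 (SE 0.14, adjusted p = 0.079) in Prdm14(-/-)+AGP14 cells, -0.87 (adjusted p = 0.00248) in Prdm14(-/-) cells and -0.77 (adjusted p = 0.00765) in Prdm14(+/+) cells. Over the 3 genotypes it averaged -0.75 (SE 0.08, adjusted p = 1.43e-05), 1.68-fold lower. The calls were lost without Prdm14(-/-) replicate 1 in the medium without LIF (-0.71) or replicate 2 in serum (-0.74), and without Prdm14(+/+) replicate 2 in the medium without LIF (-0.59) or in serum (-0.74). In Prdm14(-/-)+AGP14 cells Stat3 was called with the compared groups alone (adjusted p = 0.0057) and with the random block (0.0136). It was also called there after quantile normalization (0.0402) and on averaging the probe sets (0.0499).

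Averaged over the 3 genotypes, the receptor chains fell less than Stat3 (-0.55 for Lifr and -0.34 for Il6st, against -0.75). In Prdm14(+/+) cells, though, Lifr fell about as much as Stat3 (-0.75 and -0.77), and the genes were not tested against each other. Il6st read 9.34 and 9.40 in Prdm14(-/-)+AGP14 cells without LIF, against 9.33 and 9.37 in serum, so these groups overlapped. In Prdm14(-/-) cells it read 8.66 and 8.82 without LIF, against 9.21 and 9.37 (difference -0.55, SE 0.09, adjusted p = 0.00514). In Prdm14(+/+) cells it read 9.16 and 9.21 without LIF, against 9.68 and 9.67 (-0.49, adjusted p = 0.0131). The groups did not overlap in either of those genotypes. The calls were lost without replicate 1 in the medium without LIF (-0.47 in both genotypes) or replicate 2 in serum (-0.47 in Prdm14(-/-) and -0.49 in Prdm14(+/+) cells).

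Lifr read 10.15 and 10.27 in Prdm14(-/-)+AGP14 cells without LIF, against 10.37 and 10.31 in serum. In Prdm14(-/-) cells it read 8.80 and 9.29 without LIF, against 9.67 and 9.93 (difference -0.76, SE 0.18, adjusted p = 0.0533). In Prdm14(+/+) cells it read 8.94 and 9.69 without LIF, against 9.90 and 10.23 (-0.75, adjusted p = 0.0462). No array without LIF reached those with it in any genotype, and the 2 arrays without LIF differed by more in Prdm14(+/+) cells than in the others. The call in Prdm14(+/+) cells was lost without replicate 1 in the medium without LIF (-0.38) or replicate 2 in serum (-0.58). It was also lost after quantile normalization (adjusted p = 0.0771), without an intensity trend (0.1), on averaging the probe sets (0.123) and with arrays of 1 lys set (0.115). In Prdm14(-/-) cells Lifr was called with the replicate block (adjusted p = 0.0107), the random block (0.00763) and without dim genes (0.0381). Over the 3 genotypes Lifr averaged -0.55 (SE 0.11, adjusted p = 0.00298) and Il6st -0.34 (SE 0.05, adjusted p = 0.000696).

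Jak1 lay between 7.81 and 8.04 on the 6 arrays without LIF and between 7.78 and 8.06 on the 6 with it. Its mean difference was 0.02, with a 95% interval of -0.11 to 0.16 (adjusted p = 0.884). Both groups covered nearly the same range. The 2 further probe sets of Jak1 gave -0.36 (adjusted p = 0.058) and 0.00.

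**Figure D2:**
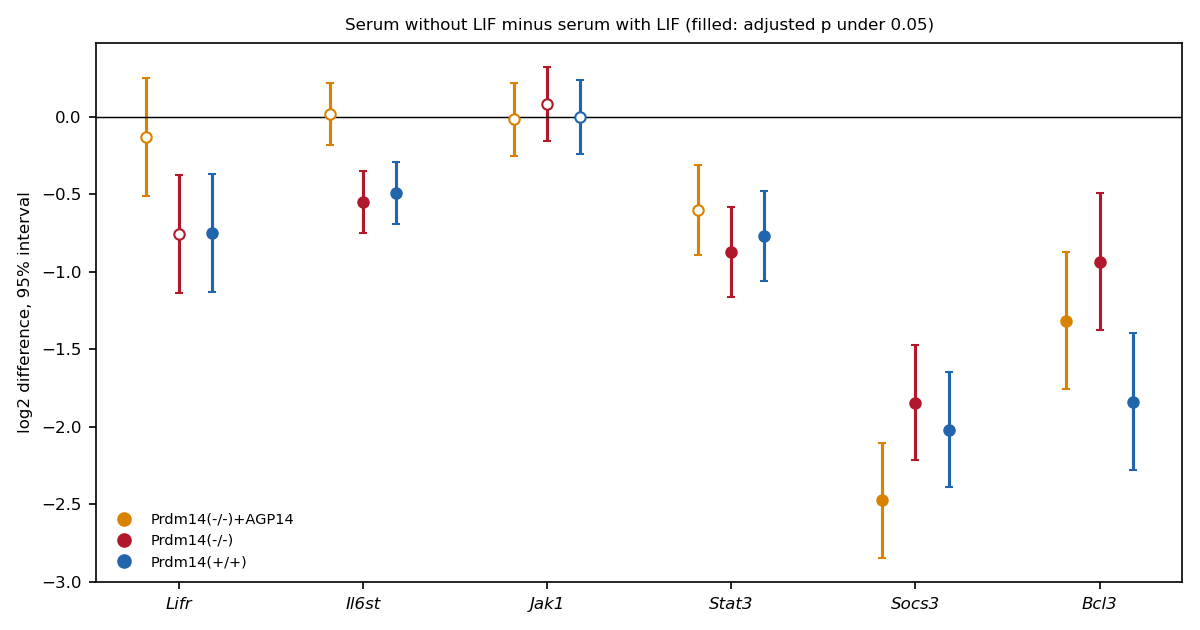
Log2 difference between serum without LIF and serum with LIF (vertical axis) for each gene in Prdm14(-/-)+AGP14, Prdm14(-/-) and Prdm14(+/+) cells, with the 95% interval of the limma fit as bars and filled points where the adjusted p is under 0.05. Socs3 and Bcl3 lie below 0 in all 3 genotypes, and Lifr and Il6st lie near 0 in Prdm14(-/-)+AGP14 cells.

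Counted together, 2 of the 6 genes fell in Prdm14(-/-)+AGP14 cells, where 0.187% of all genes did. In Prdm14(-/-) cells 4 fell, against 0.83% of all genes, and in Prdm14(+/+) cells 5 fell, against 1.17%. Over the mean of the 3 genotypes 5 fell, against 5.09% of all genes, and none of the 6 rose. The median difference of the 6 genes over that mean was -0.65, and that of all genes 0.005. Among all genes called over the mean, 43.26% were higher without LIF, and 53.96% after quantile normalization. In Prdm14(+/+) cells these shares were 21.98% and 44.0%, and in Prdm14(-/-) cells 24.5% and 36.84%. For the mean of the 3 genotypes, the 5 calls held under all 7 or 8 alternatives run for each gene and without each of the 12 arrays, except that Bcl3 was not tested where dim genes were left out. With the arrays of the compared groups alone, 3 of the genes were called in Prdm14(-/-)+AGP14, 1 in Prdm14(-/-) and 0 in Prdm14(+/+) cells.

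Whether the response to LIF differed between genotypes was tested as an interaction, and no difference was called for any of the 6 genes. The difference of the responses, Prdm14(-/-)+AGP14 minus Prdm14(-/-), was 0.57 for Il6st (95% interval 0.29 to 0.85, adjusted p = 0.238), 0.62 for Lifr (0.08 to 1.17, adjusted p = 0.909) and -0.63 for Socs3 (-1.16 to -0.10, adjusted p = 0.867). Only 0.077% of all genes were called in that test. For Prdm14(-/-)+AGP14 minus Prdm14(+/+) it was 0.51 for Il6st (0.23 to 0.79, adjusted p = 0.611), and for Prdm14(-/-) minus Prdm14(+/+) it was 0.91 for Bcl3 (0.28 to 1.53, adjusted p = 1). Limma called 0 genes in either of these tests, with 904 and 654 genes at an unadjusted p under 0.05. The 3 tests share arrays. The intervals for Bcl3, Lifr and Socs3 reach past 1 log2 unit, so a shared response was not shown for them. Those given for Il6st exclude 0 although no test was called, so a shared response was not shown for it either.

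The rest of the pathway was listed by role. Of 15 other STAT3 target genes, 6 fell and none rose over the mean of the 3 genotypes. They were the transcription factor genes Klf4 (-1.58, SE 0.21, adjusted p = 0.000141), Tfcp2l1 (-1.52, adjusted p = 2.14e-05), Klf5 (-1.09, adjusted p = 8.41e-09) and Junb (-0.57), the demethylase gene Kdm3a (-0.46) and the adhesion gene Icam1 (-0.59). Pim1 and Pim3, which encode kinases, and Myc did not pass (0.23, -0.43 and 0.08). The median of the 15 was -0.43. After quantile normalization 6 fell and 1 rose. Single genotypes gave 1 of 15 lower in Prdm14(-/-)+AGP14 cells (Klf5, -0.80), 4 in Prdm14(-/-) cells and 5 in Prdm14(+/+) cells.

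Other components hardly moved with LIF. Of 6 ligand genes measured, 1 rose, Clcf1, which encodes a cytokine of the same family (0.85, SE 0.18, adjusted p = 0.00682), and none fell. None of the 3 other receptor genes, 6 kinase and adaptor genes, 5 other STAT genes and 14 inhibitor genes passed in either direction. After quantile normalization 2 of the inhibitors rose. The list included Socs1 (-0.02), Socs2 (-0.30) and Cish (0.03), which belong to the same family as Socs3. In all, 7 of 49 other pathway genes passed, where 8.97% of all genes did, and their median was -0.05.

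**Figure D3:**
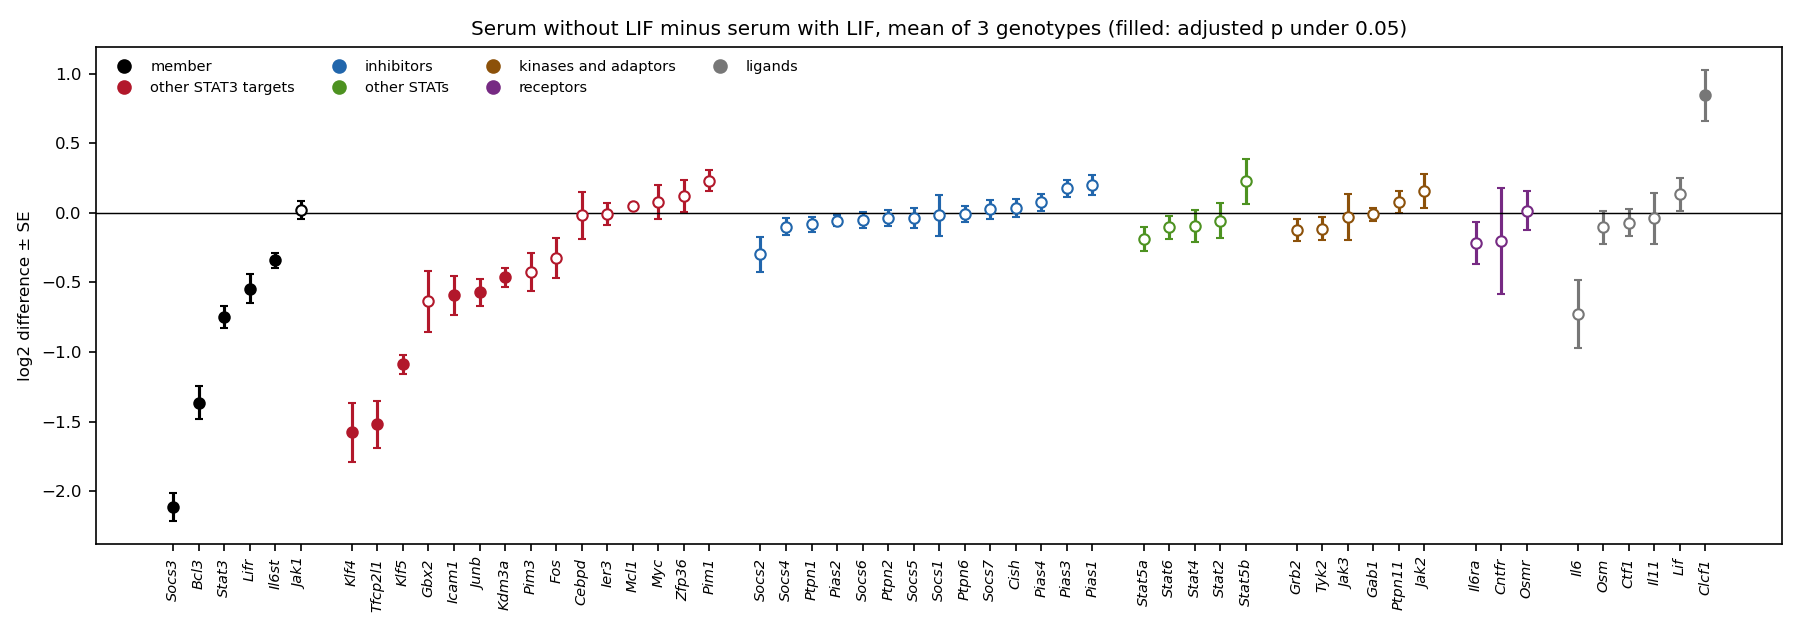
Log2 difference between serum without LIF and serum with LIF, averaged over 3 genotypes (vertical axis, bars are standard errors), for the 6 genes described and 49 other pathway genes grouped by role, with filled points where the adjusted p is under 0.05. The called genes below 0 are 5 of the 6 genes and 6 of 15 other STAT3 targets, and Clcf1 is the called gene above 0.

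Markers of the cell state moved with LIF too. Of 7 naive markers, none was called in Prdm14(-/-)+AGP14 cells, 4 fell in Prdm14(-/-) cells and 6 fell in Prdm14(+/+) cells. The summed naive level was 13.68 to 13.84 without LIF and 14.04 to 14.08 with it in Prdm14(-/-)+AGP14 cells. It was 11.67 to 11.89 and 12.78 to 12.85 in Prdm14(-/-) cells, and 12.51 to 12.85 and 13.43 to 13.74 in Prdm14(+/+) cells. Without LIF, the group means of Lifr, Il6st and Stat3 stood in the same order of genotypes as these levels, and those of Jak1, Socs3 and Bcl3 did not. All 3 core pluripotency genes, Pou5f1 (-0.17), Sox2 (-0.27) and Sall4 (-0.15), fell over the mean, 2 of them after quantile normalization, and 1 of 4 epiblast markers, Fgf5, rose (1.78). Feeder markers did not fall: 1 of 20 rose over the mean of genotypes, with a median of 0.18, and none was called in a single genotype. The part of these shifts in the results for the 6 genes was not tested.

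**Figure D4:**
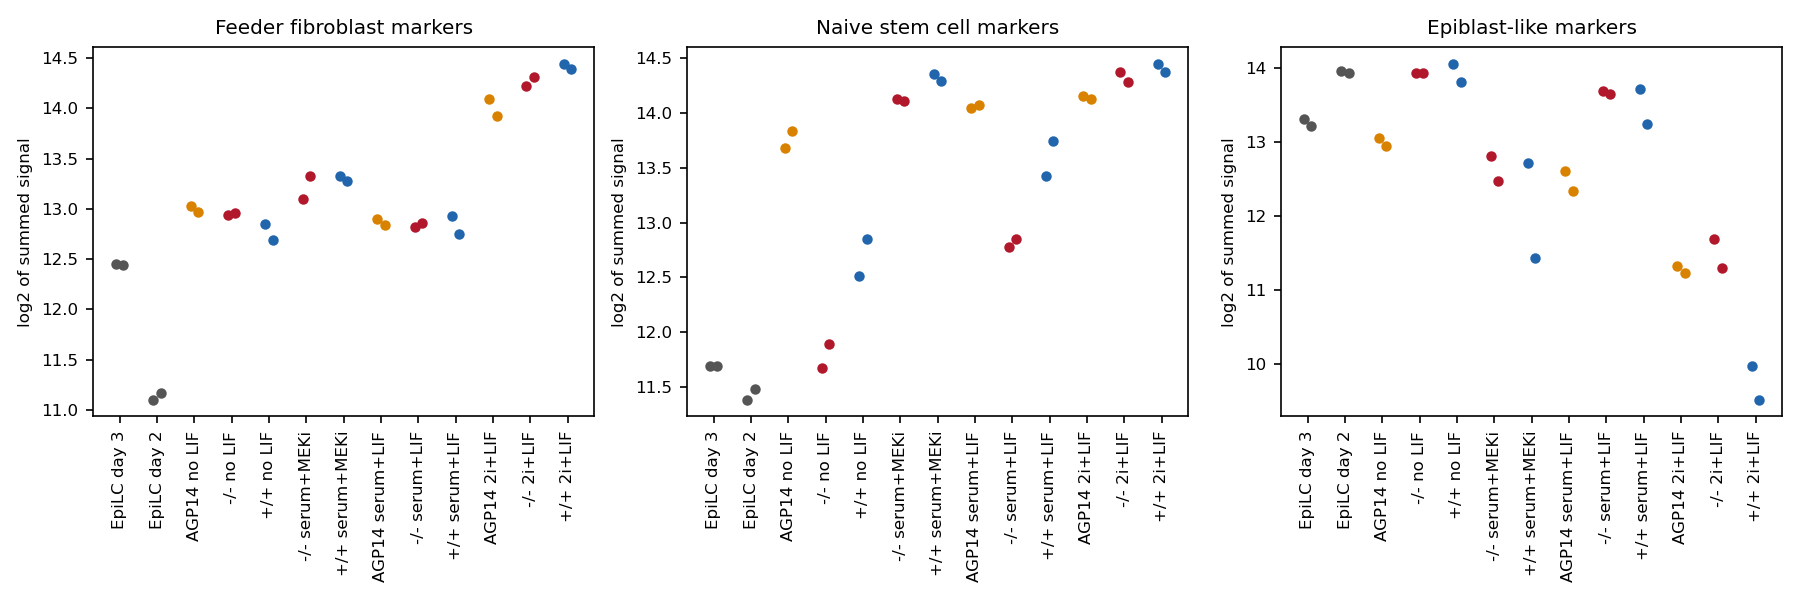
Log2 of the summed signal of feeder fibroblast (20 genes), naive stem cell (7 genes) and epiblast-like (4 genes) markers (vertical axes) on each of 26 arrays in the 13 groups. Feeder markers are highest in 2i, and naive markers without LIF are highest in Prdm14(-/-)+AGP14 cells, at 13.68 to 13.84.

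Comparison of arrays labelled Prdm14(-/-) with those labelled Prdm14(+/+) in the same medium showed 2 patterns. Bcl3 was lower in Prdm14(-/-) cells in each medium with LIF, and Stat3 was lower in each serum medium. Il6st was lower in serum with and without LIF. Lifr and Jak1 were not called in any medium. Without LIF 2 of the 6 genes were called, where 4.19% of all genes were, with MEK inhibitor 2 (4.08%), in serum 3 (4.17%) and in 2i 2 (9.15%). With the arrays of the compared groups alone, limma called 0 of the 6 in each medium.

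Bcl3 read 6.05 and 6.63 in Prdm14(-/-) cells in 2i, against 8.15 and 8.19 in Prdm14(+/+) cells. With MEK inhibitor it read 6.13 and 6.33 in Prdm14(-/-) cells, against 7.67 and 7.61 in Prdm14(+/+) cells. The groups were far apart in both media and closer in serum, where the values given above were 5.96 and 6.19 against 6.83 and 7.02. The differences were -1.83 (SE 0.21, adjusted p = 2.26e-05) in 2i, -1.41 (adjusted p = 0.000601) with MEK inhibitor and -0.85 (adjusted p = 0.0287) in serum. Without LIF, where Bcl3 was low in both genotypes, the difference was 0.06 (adjusted p = 0.938). On those arrays the median of all probe sets was 4.89 to 4.92, near the signal of Bcl3. Whether Bcl3 stood above background there was not tested. The call in serum did not survive the loss of any 1 array (-0.96 to -0.73).

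Stat3 with MEK inhibitor read 8.38 and 8.53 in Prdm14(-/-) cells, against 9.33 and 9.22 in Prdm14(+/+) cells, a difference of -0.82 (SE 0.14, adjusted p = 0.00173). It was lower by 0.60 in serum (difference -0.60, adjusted p = 0.0196) and by 0.70 without LIF (difference -0.70, adjusted p = 0.00712). In 2i it read 8.84 and 9.16 against 9.21 and 9.20, and the difference of -0.20 was not called. Il6st differed by -0.44 without LIF (SE 0.09, adjusted p = 0.0104) and by -0.39 in serum (adjusted p = 0.027). Of these, only the call of Stat3 with MEK inhibitor held without each array: Stat3 lost it in serum without Prdm14(-/-) replicate 1 (-0.47) or either Prdm14(+/+) replicate (-0.62 and -0.57), and without LIF on leaving out replicate 1 of either genotype (-0.54 and -0.52). Il6st lost it without Prdm14(-/-) replicate 1 (-0.36 without LIF, -0.30 in serum) or either Prdm14(+/+) replicate (-0.47 and -0.42 without LIF, -0.38 and -0.39 in serum). Averaging the probe sets of a gene ended the calls of Stat3 (-0.27 in both media) and Il6st (-0.45 without LIF, -0.33 in serum). Of the further Stat3 probe sets, 1 was also called (-0.52 without LIF, -0.57 in serum) and the other 2 were not (-0.13 and 0.28 without LIF, -0.09 and 0.17 in serum).

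Socs3 took another course. In 2i it read 10.80 and 11.40 in Prdm14(-/-) cells, against 10.53 and 10.36 in Prdm14(+/+) cells, a difference of 0.66 (SE 0.18, adjusted p = 0.0249). In serum it read 10.79 and 10.98, against 11.14 and 11.41, a difference of -0.39 that was not called (adjusted p = 0.244). Socs3 was therefore higher in 2i in the genotype in which Bcl3 was lower. The call in 2i was lost without Prdm14(-/-) replicate 2 (0.35) or either Prdm14(+/+) replicate (0.74 and 0.57). It was also lost without an intensity trend (adjusted p = 0.0578), on averaging the probe sets (0.0699) and with arrays of 1 lys set (0.0814). The other 2 probe sets of Socs3 gave 0.67 and 0.68 in 2i, not called.

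In 2i, 4 of 15 other STAT3 targets fell in Prdm14(-/-) cells and 1 rose. Pim1 fell by 1.79 (SE 0.13, adjusted p = 1.07e-07), Icam1 by 1.17, Pim3 by 1.01 and Klf5 by 0.95, and Myc was higher by 1.15. The ligand genes Osm and Il6 fell by 1.47 and 1.48. Klf5 fell in every medium, by 0.88 in serum, 1.08 without LIF and 0.91 with MEK inhibitor. Of the 7 naive markers, none was called in 2i or with MEK inhibitor, and 4 fell both in serum and without LIF. Of 20 feeder markers, none was called in 2i or with MEK inhibitor, 1 rose in serum and 2 rose without LIF. The part of these markers in the differences was not tested.

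**Figure D5:**
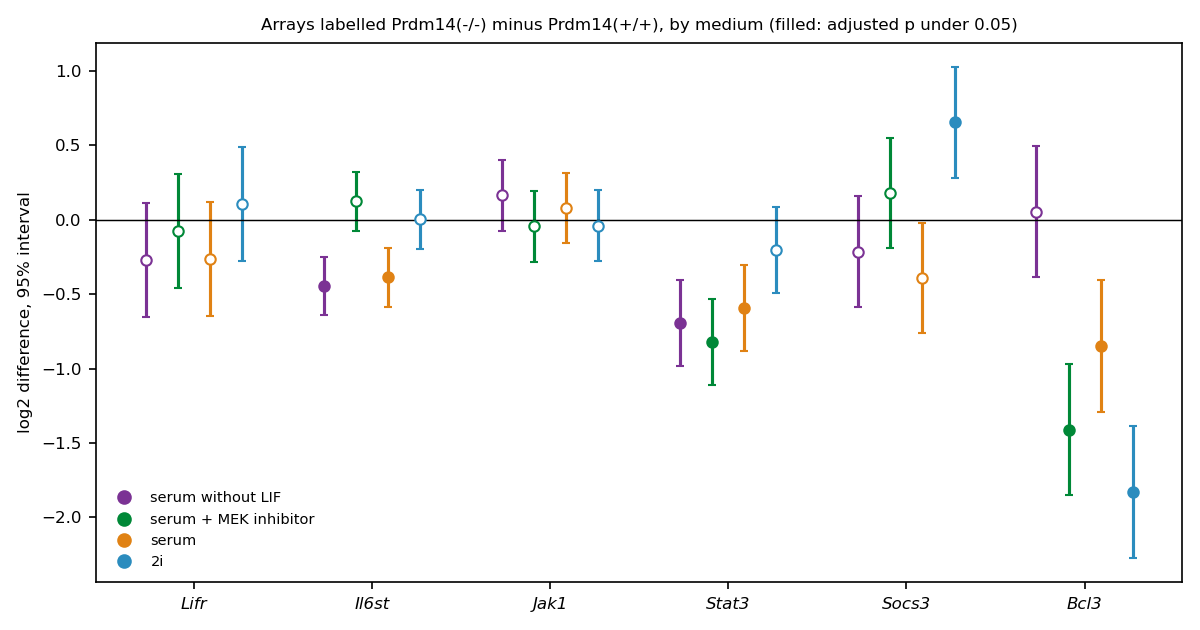
Log2 difference between arrays labelled Prdm14(-/-) and Prdm14(+/+) (vertical axis) for each gene in serum without LIF, serum with MEK inhibitor, serum and 2i, with the 95% interval of the limma fit as bars and filled points where the adjusted p is under 0.05. Bcl3 lies below 0 in the 3 media with LIF and at 0.06 without it, and Stat3 is called in the 3 serum media.

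The transgene group was set against Prdm14(-/-) cells on arrays of the same side of the lys divide, in serum with and without LIF. Without LIF, Lifr, Il6st and Stat3 were higher in Prdm14(-/-)+AGP14 cells, and Socs3 and Bcl3 were not called. The differences were 1.17 for Lifr (SE 0.18, adjusted p = 0.000239), 1.04 for Stat3 (SE 0.14, adjusted p = 4.07e-05) and 0.63 for Il6st (SE 0.09, adjusted p = 0.000152), 3 of 6 genes where 13.3% of all genes were called. From the values given above, the groups did not overlap for any of these 3. Socs3 differed by -0.51 (adjusted p = 0.0686) and Bcl3 by 0.39 (adjusted p = 0.275). Socs3 was called lower with the replicate block (adjusted p = 0.0291), the random block (0.043) and quantile normalization (0.0333). It was also called with the compared groups alone (0.0236) and with arrays of 1 lys set (0.0237). The calls of Lifr, Il6st and Stat3 held without each of the 4 arrays. Averaging the probe sets of a gene ended the call of Lifr (0.47, adjusted p = 0.187), 1 of whose further probe sets gave -0.90 (adjusted p = 0.17).

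In serum with LIF, Stat3 was higher by 0.78 (SE 0.14, adjusted p = 0.00113) and Bcl3 by 0.77 (SE 0.21, adjusted p = 0.0243) in Prdm14(-/-)+AGP14 cells than in Prdm14(-/-) cells, 2 of 6 genes where 10.5% of all genes were called. Lifr differed by 0.54 (adjusted p = 0.0676). It was called higher with the replicate block (adjusted p = 0.0196), the random block (0.0404) and the compared groups alone (0.0244). The call of Bcl3 was lost without any 1 of the 4 arrays (0.65 to 0.88). Against Prdm14(+/+) cells in serum, 1 of 6 genes was called, Il6st, which was lower (-0.33, adjusted p = 0.0447), where 6.96% of all genes were, and its call too was lost without any 1 of the 4 arrays (-0.34 to -0.30).

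Without LIF, Prdm14(-/-)+AGP14 cells differed from Prdm14(+/+) cells in 2 of 6 genes, where 10.7% of all genes were called. Lifr was higher by 0.90 (SE 0.18, adjusted p = 0.00427) and Socs3 lower (-0.72, SE 0.18, adjusted p = 0.0143). Lifr was thus higher, and Socs3 lower, on the same arrays, and a link between them was not tested. The call of Lifr was lost without Prdm14(+/+) replicate 1 (0.52) or Prdm14(-/-)+AGP14 replicate 2 (0.83), and that of Socs3 without replicate 2 of either genotype (-0.52 and -0.64). Averaging its probe sets ended the call of Lifr (0.31), and the compared groups alone ended both. Beside these values, 12 of 20 feeder markers and 6 of 7 naive markers were higher in Prdm14(-/-)+AGP14 cells, with medians of 0.78 and 1.54, and the part of either in the differences was not tested. Against Prdm14(-/-) cells without LIF, 2 of 20 feeder markers were higher and 1 was lower, and 6 of 7 naive markers were higher. The same comparison gave higher Klf4 (2.91), Tfcp2l1 (3.23), Klf5 (1.47) and Kdm3a (1.22) and none lower of the 15 other STAT3 targets. These contrasts share the Prdm14(-/-)+AGP14 arrays.

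In 2i the Prdm14(-/-)+AGP14 arrays lie on the other side of the lys divide from both other genotypes. Against Prdm14(-/-) cells, Il6st (-0.35), Jak1 (-0.38) and Socs3 (-0.53) were lower, where 24.2% of all genes were called. Against Prdm14(+/+) cells, Bcl3 (-1.60, SE 0.21, adjusted p = 2.52e-05), Il6st (-0.34) and Jak1 (-0.42) were lower, where 25.4% were called. The Bcl3 values were 6.45 and 6.69 in Prdm14(-/-)+AGP14 cells, overlapping 6.05 and 6.63 in Prdm14(-/-) cells and below 8.15 and 8.19 in Prdm14(+/+) cells. After quantile normalization none of the 3 calls against Prdm14(-/-) cells was left (-0.21 for Il6st, -0.19 for Jak1, -0.40 for Socs3), and of those against Prdm14(+/+) cells only Bcl3 was (-0.18 for Il6st, -0.22 for Jak1). Against Prdm14(-/-) cells single arrays ended the calls of Il6st (-0.26 without Prdm14(-/-) replicate 1, -0.34 without Prdm14(-/-)+AGP14 replicate 2) and of Jak1 and Socs3 (-0.32 and -0.23 without Prdm14(-/-) replicate 2, -0.38 to -0.57 without either Prdm14(-/-)+AGP14 replicate). Against Prdm14(+/+) cells either Prdm14(-/-)+AGP14 replicate ended those of Il6st and Jak1 (-0.42 to -0.34), and Prdm14(+/+) replicate 1 also that of Il6st (-0.22). Summed feeder markers in 2i were lower in Prdm14(-/-)+AGP14 cells, at 13.93 to 14.09. They lay at 14.22 to 14.31 in Prdm14(-/-) and 14.39 to 14.44 in Prdm14(+/+) cells, and their part was not tested.

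The comparison of serum with 2i, both with LIF, stays on 1 side of the lys divide in Prdm14(-/-)+AGP14 cells only. There Il6st was lower in serum, with 9.33 and 9.37 against 9.77 and 9.75 in 2i (-0.41, SE 0.09, adjusted p = 0.00455). In this fit 1 of the 6 genes was called, where 18.2% of all genes were. Socs3, with 10.98 and 11.04 in serum against 10.61 and 10.53 in 2i, was not (0.44, adjusted p = 0.0993), but it was called with the replicate block (adjusted p = 0.0467), the random block (0.0333), the compared groups alone (0.001) and arrays of 1 lys set (0.0358). The call of Il6st was lost on averaging its probe sets (-0.08, adjusted p = 0.794). Across the divide, 4 of the 6 genes were called in Prdm14(-/-) cells (35.8% of all genes). These were Il6st (-0.82), Stat3 (-0.70), Lifr (-0.68) and Jak1 (-0.52), all lower in serum, and that of Lifr was lost without replicate 1 in serum (-0.55) and on averaging its probe sets (-0.31). In Prdm14(+/+) cells 4 were called (34.6%): Bcl3 (-1.25), Jak1 (-0.64) and Il6st (-0.43) were lower, and Socs3 was higher (0.83). The other Socs3 probe sets gave -0.09 and 0.15 in Prdm14(+/+) cells, and the average over all 3 was not called (0.30). In Prdm14(-/-) cells that average was called lower in serum (-0.725, adjusted p = 0.0129). The chosen Socs3 probe set was not called there (-0.21, adjusted p = 0.392). Feeder markers were lower in serum in each genotype (12, 14 and 14 of 20 in Prdm14(-/-)+AGP14, Prdm14(-/-) and Prdm14(+/+) cells). The part of feeder RNA was not tested.

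The change of Socs3 between serum and 2i differed between the genotypes in an interaction test, -1.04 for Prdm14(-/-) minus Prdm14(+/+) (SE 0.25, adjusted p = 0.0309), where 2.97% of all genes were called. It rests on the 2i and serum values of Socs3 above, in which the divide cancels if it acts alike in both genotypes. No other of the 6 genes was called, and Bcl3 had 0.98 (adjusted p = 0.0905). The call was lost in 6 of 8 fits with 1 array left out, with values of -1.14 to -0.74. The arrays were replicate 2 of Prdm14(-/-) in 2i, either Prdm14(+/+) replicate in 2i, either Prdm14(-/-) replicate in serum and replicate 2 of Prdm14(+/+) in serum.

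MEK inhibitor added to serum was across the divide from serum alone in both genotypes tested. Lifr was higher with the inhibitor in both, by 0.92 (SE 0.18, adjusted p = 0.00106) in Prdm14(-/-) cells, with 10.62 and 10.81 against 9.67 and 9.93. In Prdm14(+/+) cells it was higher by 0.72 (adjusted p = 0.0062), with 10.74 and 10.84 against 9.90 and 10.23. The groups did not overlap. Il6st was higher in Prdm14(-/-) cells (0.74, adjusted p = 1.45e-05) and Bcl3 in Prdm14(+/+) cells (0.72, adjusted p = 0.017), so that 2 genes were called in each genotype, where 24.5% and 25.4% of all genes were. No interaction was called for the 6 genes (0.231% of all genes called). In Prdm14(+/+) cells the call of Bcl3 was lost without replicate 1 in serum (0.62) or either replicate with inhibitor (0.69 and 0.74), and that of Lifr without replicate 1 in serum (0.56) or replicate 2 with inhibitor (0.68) and on averaging its probe sets (0.27). Other calls were gained. On averaging probe sets, Socs3 (0.83, adjusted p = 0.00832) and Stat3 (0.37, 0.034) were higher in Prdm14(-/-) cells. Stat3 (0.57, 0.0021) and Il6st (0.42, 0.0469) were higher in Prdm14(+/+) cells. Stat3 there (0.38, adjusted p = 0.0505) was also called with the replicate block (0.048), the random block (0.016) and without dim genes (0.0339). Jak1 there was called with the random block (0.0494). Feeder markers were also higher, 13 and 14 of 20, and their part was not tested.

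On 1 side of the divide, MEK inhibitor in serum was set against 2i, a comparison added after the data had been seen. Jak1 was lower in both genotypes (-0.38 in each, SE 0.11, adjusted p = 0.029 in Prdm14(-/-) and 0.0333 in Prdm14(+/+) cells). Stat3 was lower in Prdm14(-/-) cells (-0.55, adjusted p = 0.0117) and Socs3 higher in Prdm14(+/+) cells (0.59, adjusted p = 0.0347), 2 genes in each, where 13.2% and 12.5% of all genes were called. All 4 calls depended on single arrays. In Prdm14(+/+) cells both were lost on leaving out any 1 of the 4 (Jak1 -0.39 to -0.37, Socs3 0.51 to 0.68). In Prdm14(-/-) cells Jak1 lost it without either replicate in 2i (-0.45 and -0.33) or replicate 1 with inhibitor (-0.20), and Stat3 without replicate 2 in 2i (-0.39) or replicate 1 with inhibitor (-0.47). Summed feeder markers were lower with inhibitor, at 13.10 to 13.33 against 14.22 to 14.31 in 2i in Prdm14(-/-) cells. In Prdm14(+/+) cells they lay at 13.28 to 13.33 against 14.39 to 14.44. The part of feeder RNA was not tested.

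The largest differences were in EpiLC. All 6 genes were lower on day 2 than in Prdm14(+/+) stem cells in 2i, where 38.3% of all genes were called and 21.1% were lower. EpiLC are cells on the way to the state of the post-implantation epiblast, in which LIF no longer maintains self-renewal. The lines differ, since EpiLC came from the reporter line, and both groups lie on the same side of the lys divide.

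Socs3 read 6.40 and 6.73 on day 2, against 10.53 and 10.36 in 2i, a difference of -3.88 (SE 0.18, adjusted p = 6.54e-12). Il6st read 7.36 and 7.42, against 10.23 and 9.98 (-2.71, SE 0.09, adjusted p = 1.48e-13). Stat3 read 6.58 and 6.77, against 9.21 and 9.20 (-2.53, adjusted p = 7.04e-11). No EpiLC array came near the 2i arrays for these genes. Lifr read 8.26 and 8.43, against 10.27 and 10.47 (-2.02, adjusted p = 4.97e-08). Bcl3 read 4.84 and 5.16, against 8.15 and 8.19 (-3.17, adjusted p = 8.51e-10). Jak1, at 7.76 and 7.94 against 8.50 and 8.52, changed least (-0.66, adjusted p = 0.000104). All 6 calls held without each of the 4 arrays and in every alternative fit, with Bcl3 untested where dim genes were left out.

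Most of the pathway list moved in the same contrast. Of 49 other pathway genes, 23 fell and 5 rose. Among the 15 other STAT3 targets 10 fell, including Fos (-7.11), Klf4 (-6.54), Tfcp2l1 (-5.09), Klf5 (-3.79) and Junb (-3.60), and Myc (4.38) and Pim1 (0.74) rose. Osmr, which encodes the oncostatin M receptor chain that also pairs with gp130, fell by 5.66, and the ligand genes Il6 (-5.64), Osm (-2.81) and Lif (-1.20) fell. Feeder markers fell as well, 16 of 20 with 1 higher and a median of -3.51, and Osmr and Il6 are genes that fibroblasts express. The part of feeder RNA in these differences was not tested.

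From day 2 to day 3 of EpiLC, 3 of the 6 genes rose, where 17.6% of all genes were called. Stat3 read 7.67 and 7.43 on day 3, against 6.58 and 6.77 on day 2 (0.88, SE 0.14, adjusted p = 0.000162). Jak1 read 8.34 and 8.56, against 7.76 and 7.94 (0.60, SE 0.11, adjusted p = 0.000866). Socs3 read 7.15 and 7.08, against 6.40 and 6.73 (0.55, SE 0.18, adjusted p = 0.0377). Days did not overlap for these 3, and Lifr (0.02), Il6st (0.11) and Bcl3 (-0.04) were not called. The call of Socs3 was lost without day 2 replicate 1 (0.39) or either day 3 replicate (0.52 and 0.58). It was also lost without an intensity trend (adjusted p = 0.0735), on averaging the probe sets (0.23) and with arrays of 1 lys set (0.0896). Feeder markers rose on the same day, 5 of 20 with 1 lower, a median of 0.23 and summed levels of 12.44 to 12.45 on day 3 against 11.10 to 11.17 on day 2, and their part was not tested.

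The genes whose 13 group means ran most like those of Stat3, Socs3 and Bcl3 were ranked among 11064 genes with a span of at least 1 log2 unit. Pearson's r is given as a description, and the groups share arrays, medium and the lys divide. Stat3 was most like Fbxo15 (r = 0.97), a gene of undifferentiated stem cells, then Klf5 (0.97) and Arid5b (0.96). Socs3 was most like Qtrt1 (0.94), Zdhhc15 (0.94) and Irak3 (0.93). Bcl3 was most like Icam1 (0.91), Paqr8 (0.91) and Ggh (0.90). Klf5 and Icam1 belong to the list of other STAT3 targets. Among the 6 genes themselves, r was 0.95 between Lifr and Il6st and 0.85 between Stat3 and both targets, and Jak1 reached at most 0.33 with any of them.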

How the data were processed

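One deposited table was used. It holds 1 log2 value per probe set and array, made by the authors in steps not given in the sources used here, and base 2 is inferred. Names came from GEO's platform annotation: 34944 of 45100 had 1 symbol, 932 had several and were left out, and 9160 are unnamed here. Each gene took its probe set with the highest mean. Differences were tested with limma 3.58.1 (R 4.3.3), 1 coefficient per group over 26 arrays, an intensity trend and Benjamini-Hochberg adjustment over 18193 genes. Genes were called at an adjusted p under 0.05. On simulated data for LIF withdrawal in Prdm14(+/+) cells, over 18193 genes, 25 of 67 genes changed 1.5-fold, 30 of 67 changed 2-fold and 57 of 66 changed 4-fold were called, with 4 unchanged ones.

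The 6 genes were named in every comparison, other pathway genes by role, and the 3 genes most like Stat3, Socs3 and Bcl3 by Pearson's r. Members and lists were chosen with earlier results of these data known. Lists covered ligands, receptors, kinases and adaptors, STATs, inhibitors, targets, and naive, core, epiblast-like, feeder and extraembryonic endoderm markers. Alternatives were averaged probe sets, quantile normalization, no dim genes, no trend, replicate or random blocks, the compared groups alone and each array left out. A fit on arrays of 1 spike-in set was added later. Promoter windows are from RefSeq, GRCm38.p6. One match among the target windows is not reported here.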

Additional observations from a re-analysis of the deposited data

Results flagged for a closer look

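The change of Socs3 between serum and 2i differed between the genotypes in a test of the difference itself. The interaction was -1.045 for Prdm14(-/-) minus Prdm14(+/+) (limma, SE 0.25, adjusted p = 0.0309). On its chosen probe set, Socs3 differed between serum and 2i by -0.21 in Prdm14(-/-) cells and by 0.83 in Prdm14(+/+) cells. Averaged over its 3 probe sets, it was called in Prdm14(-/-) cells (-0.725, limma, adjusted p = 0.0129). In Prdm14(+/+) cells that average was not called (0.30, adjusted p = 0.331). For the interaction, all 3 probe sets gave -1.01 to -1.04, and the 2 further ones did not pass on their own. The adjusted p ranged from 0.00493 to 0.224 over 7 alternatives, 4 of which kept the call, and leaving out replicate 2 of Prdm14(-/-) in 2i gave -0.74.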

How the results depend on the processing

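Values here count how many of the 6 genes were called, and no call changed sign. With 1 array left out, the counts ran, for LIF withdrawal, from 1 to 1 in Prdm14(-/-)+AGP14, 1 to 4 in Prdm14(-/-), 2 to 5 in Prdm14(+/+) cells and 5 to 5 over their mean. For Prdm14(-/-) against Prdm14(+/+) cells they ran from 0 to 2 without LIF and in serum, 2 to 2 with MEK inhibitor and 1 to 2 in 2i. For Prdm14(-/-)+AGP14 against Prdm14(-/-) cells they ran from 3 to 3 without LIF, 1 to 1 in serum and 0 to 2 in 2i, and against Prdm14(+/+) cells from 0 to 2, 0 to 0 and 1 to 3. For serum against 2i they ran from 1 to 1 in Prdm14(-/-)+AGP14, 3 to 5 in Prdm14(-/-) and 4 to 4 in Prdm14(+/+) cells, and from 0 to 1 for the interaction. For MEK inhibitor they ran from 2 to 2 in Prdm14(-/-) and 0 to 2 in Prdm14(+/+) cells against serum, and 0 to 2 and 0 to 0 against 2i. EpiLC gave 6 to 6 on day 2 and 2 to 3 for day 3 against day 2.

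The arrays of the compared groups alone gave 0 or 1 in the LIF tests of the Prdm14(+/+) and Prdm14(-/-) genotypes. They gave 0 for Prdm14(-/-) against Prdm14(+/+) cells in all 4 media, for Prdm14(-/-)+AGP14 against Prdm14(+/+) cells in serum and without LIF, for the interaction, and for MEK inhibitor against 2i, and 2 for serum against 2i in Prdm14(-/-)+AGP14 cells. Those fits have few residual degrees of freedom. The mean of probe sets gave 3 for LIF in Prdm14(+/+) cells and 4 for MEK inhibitor in Prdm14(-/-) cells. It gave 1 in 2i and serum and 0 without LIF for Prdm14(-/-) against Prdm14(+/+) cells, 0 in serum and 1 without LIF for Prdm14(-/-)+AGP14 against Prdm14(+/+) cells, 0 for serum against 2i in Prdm14(-/-)+AGP14 cells and for the interaction, and 1 for MEK inhibitor against 2i. Leaving out dim genes, Bcl3 among them, gave 1 in 4 comparisons with 2. Quantile normalization gave 0 and 1 for Prdm14(-/-)+AGP14 cells in 2i and 0 in serum against Prdm14(+/+) cells. No intensity trend gave 1 in 2i for Prdm14(-/-) against Prdm14(+/+) cells and for MEK inhibitor against 2i in Prdm14(+/+) cells, and 0 for Prdm14(-/-)+AGP14 against Prdm14(+/+) cells in serum and for the interaction. The random block gave 4 for MEK inhibitor in Prdm14(+/+) cells, 2 for serum against 2i in Prdm14(-/-)+AGP14 cells, and 1 and 2 for the interactions with MEK inhibitor and with 2i. Arrays of 1 spike-in set, an alternative chosen after seeing the data, gave 2 for serum against 2i in Prdm14(-/-)+AGP14 cells, 1 in 2i for Prdm14(-/-) against Prdm14(+/+) cells and 1 for MEK inhibitor against 2i in each genotype (Stat3 in Prdm14(-/-) cells, and in Prdm14(+/+) cells Lifr in place of Jak1 and Socs3). Beyond the causes named, the cause was not tested.

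Samples of different groups share only a replicate number. Deviations of same-numbered arrays correlated at -0.06 to 0.05 between genotypes and 0.10 to 0.22 within the Prdm14(-/-) and Prdm14(+/+) genotypes. The replicate block gave 2 for serum against 2i in Prdm14(-/-)+AGP14 cells, against 1 without the block, and moved no other count by over 1.5 times. With 2 arrays per group, changes of 1.5-fold and of 2-fold were often missed in the simulation.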
